A study of Mus musculus with 4 samples.

Results

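The dual-specificity MAPK phosphatases described here were 10 genes of the 16375 in a table of RNA sequencing values. They were taken by their symbols (Dusp1, Dusp2, Dusp3, Dusp4, Dusp5, Dusp6, Dusp7, Dusp10, Dusp16 and Dusp22), and the choice was made with earlier results of these data known. The samples were macrophages (BMDMs) grown in culture from mouse bone marrow with macrophage colony-stimulating factor. There were 4 libraries, 1 from control cells and 1 from butyrate-treated cells of each genotype, WT and LNCKO, and the treated cells had received 500 µM butyrate, a short-chain fatty acid made by gut bacteria, for 24 h. WT stands for wild-type C57BL/6 mice, and LNCKO for mice on a C57BL/6J background that lack the long noncoding RNA lncLy6c after a CRISPR-Cas9 deletion. The study's C57BL/6 mice are described as young animals of either sex, and which age and sex gave these 4 libraries, and whether marrow of several mice was pooled, were not given in the sources used here. A group was a single library, so the spread between replicates is unknown, no p-values are given, and every interval covers counting error only. The study followed how butyrate acts on macrophages through lncLy6c and the ERK MAPK pathway. The comparisons below ask how these phosphatases of ERK and other MAP kinases stood with and without butyrate in each genotype.

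MAP kinases are switched on when an upstream kinase phosphorylates a threonine and a tyrosine in their activation loop. Dual-specificity phosphatases remove both phosphates and so shut the kinases off. Many are themselves transcribed when a MAP kinase is active, so their mRNA is commonly read as a feedback arm of the pathway. In macrophages Dusp1 is best known for limiting p38 and JNK signalling, and with it cytokine output, after Toll-like receptor stimulation. The members divide by place and substrate. Dusp1, Dusp2, Dusp4 and Dusp5 are nuclear and inducible, Dusp6 and Dusp7 are cytoplasmic and act on ERK, Dusp10 and Dusp16 act mainly on JNK and p38, and Dusp3 and Dusp22 are small atypical enzymes without the kinase-binding domain of the others.

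Sequencing depth was similar in the 4 libraries, 53363944 to 65521713 fragments by the recovered totals, and it set the counting intervals given below. Each of the 10 macrophage markers, among them Csf1r and Adgre1, was present in every library. Presence alone cannot set macrophages apart, because the granulocyte and B cell markers below were present in every library too. The summed level of the macrophage markers ran from 9696 to 20462 FPM (fragments per 1000000 assigned), a spread in which Lyz2 took the largest part. RNA of other cells was present too. The 10 neutrophil and granulocyte precursor markers summed to 6012 to 8120 FPM and the 7 B cell markers to 1172 to 1478 FPM, with none at 0 in any library, and in bulk RNA fewer cells of a type and less RNA per cell cannot be told apart. The 4 Y-linked genes Ddx3y, Eif2s3y, Kdm5d and Uty summed to 3.60 and 2.23 FPM without and with butyrate in WT, and to 288 and 308 FPM in LNCKO, so that genotype and sex of the cells cannot be told apart in any difference between LNCKO and WT. The lncLy6c transcript was not analysed here, so the genotype label itself was not checked.

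The mean level of the phosphatases, per kilobase of their exons, ran from 0.390 to 51.2 FPM. Dusp1 was the most abundant member, with a mean over the 4 libraries of 51.2 FPM per exon kilobase and a range of 48.2 to 56.0. Dusp6 followed at 42.7, with a range of 39.0 to 46.5. These 2 genes made up between 52.4% and 56.5% of the summed level of the 10 members, per exon kilobase, in every library. Dusp2 at 19.9, Dusp3 at 19.0 and Dusp5 at 16.7 FPM per exon kilobase formed a middle group whose neighbours overlapped over the libraries, so their order was not fixed. Dusp7 at 11.0 and Dusp22 at 4.90 stood apart from their neighbours. Dusp16 at 2.77 and Dusp10 at 2.76 overlapped, and Dusp10 was the higher of the pair in 3 of 4 libraries. Dusp4 closed the order, with 41 to 74 fragments per library.

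**Figure D1:**
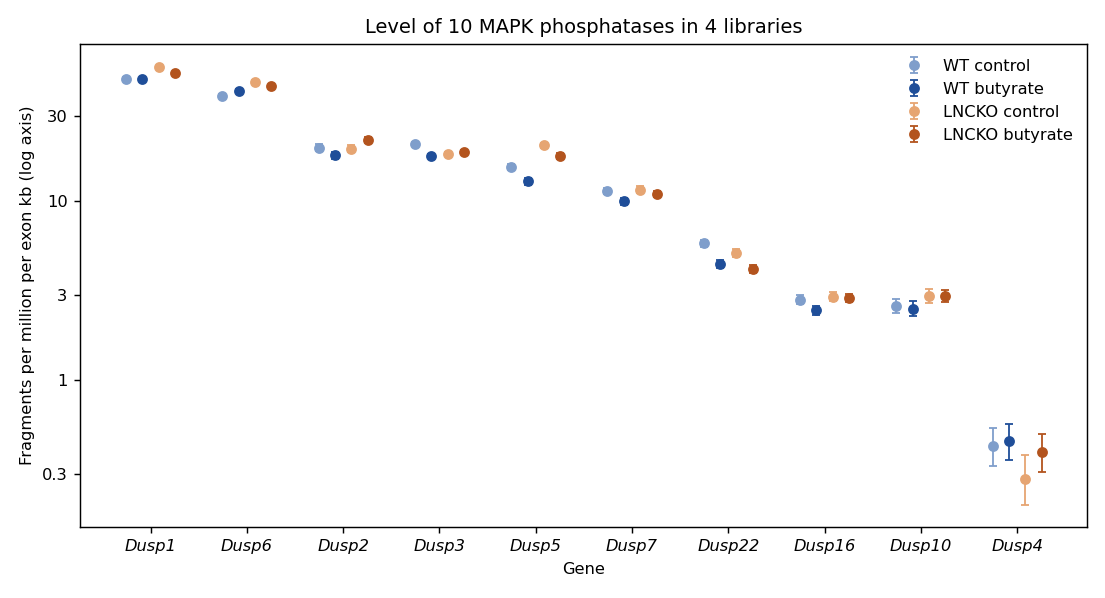
Level of the 10 MAPK phosphatases in the 4 libraries, as FPM per exon kilobase on a log axis, with 1 point per library and bars for the 95% counting interval. Dusp1 and Dusp6 lie at the top, Dusp4 lies below 0.5, and for Dusp5 both LNCKO points lie above both WT points.

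The deposited FPKM values gave another order, because they divide fragments by the whole genomic span of a gene, introns included. By deposited FPKM, Dusp6 came first with a mean of 31.4 and Dusp1 was only the sixth, with a mean of 3.00. In GENCODE M21 the span of Dusp1 is 56539 bases, stretched by a long transcript, while its exons cover 3311 bases and the RefSeq gene spans 2882 bases. Its span was thus 17.1 times its exon length, against 1.36 times for Dusp6 and 1.11 times for Dusp2. For Dusp10 the factor was 20.5. Folds between libraries are not touched by this, since each gene keeps its length. Levels between members are, and they are compared here only per exon kilobase. Such a level takes all fragments of a gene as exonic, which was not checked here.

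**Figure D2:**
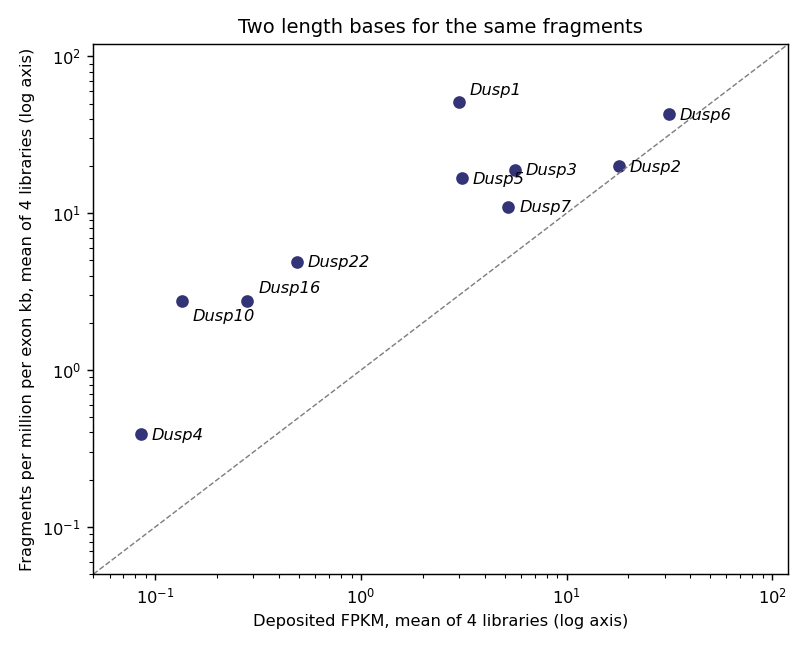
Mean of the 4 libraries for each member, deposited FPKM on the horizontal axis and FPM per exon kilobase on the vertical axis, both log, with a dashed line where they are equal. Dusp1 lies far above the line at 3.00 against 51.2, whereas Dusp2 and Dusp6 lie close to it.

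Among the nuclear, inducible members, Dusp1 (MKP-1; ENSMUSG00000024190, GRCm38 chr17:26505590-26562128, minus strand) is a classical early-response gene. The RefSeq sequence before its start is shown because it holds a full cyclic AMP response element (CRE), TGACGTCA, a site bound by CREB and ATF factors. Among the 9 members with a RefSeq promoter here, in the window from 250 to 51 bases before the start, it was found in Dusp1 alone. The 200 bases of that window are printed (GRCm38.p6 chr17:26508523-26508722, minus strand), with the CRE, 143 to 136 bases before the start, in capitals.
Dusp1: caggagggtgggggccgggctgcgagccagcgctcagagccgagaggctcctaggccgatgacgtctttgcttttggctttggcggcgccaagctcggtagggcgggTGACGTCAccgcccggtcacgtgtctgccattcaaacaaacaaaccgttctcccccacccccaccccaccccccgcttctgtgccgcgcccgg
In WT, Dusp1 was counted at 160 FPM both without and with butyrate, and in LNCKO at 185 FPM without and 173 FPM with it. The LNCKO libraries were the higher ones in both treatments, and the WT libraries were level with each other. The ratio of LNCKO to WT was 1.16 in control (95% counting interval 1.13 to 1.19) and 1.08 under butyrate (1.05 to 1.11). Butyrate against control gave 0.997 in WT (0.969 to 1.03) and 0.932 in LNCKO (0.907 to 0.957). The far end of the long span overlaps Ergic1 on the opposite strand, and whether the counting used strand was not given in the sources used here.

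Dusp5 (ENSMUSG00000034765, GRCm38 chr19:53529109-53542431, plus strand), a nuclear phosphatase selective for ERK, differed most between the genotypes on the log2 scale of FPM plus 1. Its upstream sequence is printed for 2 CArG boxes side by side, found in no other of the 9 promoters searched in this window. The CArG box is the binding motif of serum response factor, which works with ERK-regulated cofactors. They lie 82 to 73 and 72 to 63 bases before the RefSeq start and are in capitals in the 200 bases of GRCm38.p6 chr19:53528895-53529094, plus strand.
Dusp5: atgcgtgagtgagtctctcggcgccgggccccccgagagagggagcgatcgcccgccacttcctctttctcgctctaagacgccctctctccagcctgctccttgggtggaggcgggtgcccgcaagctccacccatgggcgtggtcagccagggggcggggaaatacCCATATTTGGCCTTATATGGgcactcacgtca
Dusp5 stood at 38.4 FPM without and 32.1 FPM with butyrate in WT, and at 50.8 FPM without and 44.2 FPM with it in LNCKO. Both LNCKO libraries lay above both WT libraries, and within each genotype the butyrate library was the lower one. LNCKO against WT gave 1.32 (95% counting interval 1.25 to 1.40) in control and 1.38 (1.30 to 1.46) under butyrate. Of all genes compared, 3.31% were higher by at least as much in LNCKO control and 4.84% in LNCKO butyrate. Butyrate against control gave 0.836 (0.786 to 0.890) in WT and 0.870 (0.826 to 0.917) in LNCKO. An antisense gene, AC137853.2, overlaps its first bases.

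Dusp2 (PAC-1; ENSMUSG00000027368, GRCm38 chr2:127336159-127338376, plus strand), known from activated leukocytes, took opposite directions with butyrate in the genotypes. WT cells had 40.0 FPM without and 36.2 FPM with butyrate, and LNCKO cells 39.5 FPM without and 44.0 FPM with it. The control libraries were level, with a ratio of LNCKO to WT of 0.988 (0.931 to 1.05), and the butyrate libraries were the lowest and the highest of the 4. Butyrate against control was 0.906 (0.854 to 0.962) in WT and 1.11 (1.05 to 1.18) in LNCKO. Under butyrate, LNCKO stood at 1.21 times WT (1.15 to 1.29).

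Dusp4 (MKP-2; ENSMUSG00000031530, GRCm38 chr8:34807297-34819894, plus strand) was close to the lower limit of what was compared, a mean of 1 FPM. It had 66 fragments without and 74 with butyrate in WT, and 41 without and 71 with it in LNCKO. The LNCKO control library was the low one, at 0.656 times WT control (0.433 to 0.984). The other 3 comparisons of Dusp4 had intervals that held 1, the widest being 0.947 to 2.13 for butyrate in LNCKO, so that no difference there was detectable at this depth. No upstream sequence is shown for Dusp4.

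The cytoplasmic ERK phosphatases stayed under 1.2-fold in every comparison. Dusp6 (MKP-3; ENSMUSG00000019960, GRCm38 chr10:99263231-99267489, plus strand), a classical feedback inhibitor of ERK, was counted at 122 FPM without and 129 FPM with butyrate in WT, and at 146 FPM without and 138 FPM with it in LNCKO. Both LNCKO libraries again lay above both WT libraries. The ratio of LNCKO to WT was 1.19 (1.15 to 1.23) in control and 1.06 (1.03 to 1.10) under butyrate. Of all genes compared, 8.04% were higher by at least as much in LNCKO control and 41.1% in LNCKO butyrate. With butyrate Dusp6 was slightly higher in WT, at 1.06 (1.02 to 1.09), and slightly lower in LNCKO, at 0.944 (0.915 to 0.973). Dusp7 (MKP-X; ENSMUSG00000053716, GRCm38 chr9:106368632-106375724, plus strand) had 38.4 FPM without and 33.6 FPM with butyrate in WT, and 38.9 FPM without and 36.9 FPM with it in LNCKO. Its WT butyrate library was the low one, at 0.875 times WT control (0.823 to 0.931), and the control libraries of the genotypes gave 1.01 (0.954 to 1.08).

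The JNK and p38 phosphatases were low in level. Dusp10 (MKP-5; ENSMUSG00000039384, GRCm38 chr1:184013302-184075636, plus strand) had 7.93 FPM (447 fragments) without and 7.65 FPM (453) with butyrate in WT, and 9.01 FPM (481) without and 8.99 FPM (589) with it in LNCKO. Both LNCKO libraries were above both WT libraries, at 1.14 (0.998 to 1.30) in control and 1.17 (1.04 to 1.33) under butyrate, and the intervals for butyrate held 1 in both genotypes. Dusp16 (MKP-7; ENSMUSG00000030203, GRCm38 chr6:134715468-134792625, minus strand) had 22.0 FPM without and 19.2 FPM with butyrate in WT, and 22.9 FPM without and 22.4 FPM with it in LNCKO. WT butyrate was its low library, at 0.876 times WT control (0.807 to 0.950), while the other 3 libraries were within 1.04-fold of one another. Genes on the opposite strand overlap both spans, 1700056E22Rik at Dusp10 and Gm36328 at Dusp16.

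The atypical members differed from each other. Dusp22 (JKAP; ENSMUSG00000069255, GRCm38 chr13:30659999-30711231, plus strand), a phosphatase known to restrain T cell receptor signalling, was the member with the largest butyrate difference in each genotype on the log2 scale of FPM plus 1, though not by the plain ratio in LNCKO, where the sparse Dusp4 stood at 1.41. It had 29.7 FPM without and 22.7 FPM with butyrate in WT, and 26.3 FPM without and 21.3 FPM with it in LNCKO. Both butyrate libraries lay below both control libraries, with a ratio of 0.766 (0.712 to 0.823) in WT and 0.810 (0.752 to 0.873) in LNCKO. Of all genes compared, 7.35% were lower by at least as much in WT and 4.42% in LNCKO. Dusp3 (VHR; ENSMUSG00000003518, GRCm38 chr11:101971143-101987013, minus strand), which acts on ERK and JNK, had 97.5 FPM without and 83.7 FPM with butyrate in WT, and 86.2 FPM without and 88.0 FPM with it in LNCKO. The WT control library was the high one. Butyrate against control gave 0.859 (0.826 to 0.893) in WT and 1.02 (0.982 to 1.06) in LNCKO. Cfap97d1 and Gm20659 overlap Dusp3 on the opposite strand.

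In the RefSeq promoters of 9 members, from 250 to 51 bases before the start and read on both strands, the CRE and the CArG boxes were the rare motifs. The CRE was found in 0.828% of all 32851 promoters and the CArG box in 1.16%. The CRE half-site TGACG, part of the full site, was present in 3 of 9 members, Dusp1, Dusp5 and Dusp16, and in 12.7% of all promoters. The GC box GGGCGG was present in 5 of 9 members and in 24.6% of all promoters. Neither the AP-1 site TGACTCA, present in 3.61% of promoters, nor the ETS site CCGGAAG, present in 3.98%, was among these letters in any member. A match is a description of sequence only. Dusp1 and Dusp5, the genes shown, had their highest level in LNCKO control and their lowest in WT butyrate. So had Dusp7, Dusp10 and Dusp16, whose promoters are not printed. For Dusp1 the WT libraries were level, with a ratio of butyrate to control of 0.997 (0.969 to 1.03).

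Counted against all genes, no phosphatase passed 1.5-fold in any comparison, on the log2 scale of FPM plus 1 that all log2 values here use. In WT, 0 of 10 members were at least 1.5-fold higher with butyrate, where 2.79% of the 11738 genes compared were, and 0 of 10 were lower by that much, where 2.06% of genes were. In LNCKO, 0 of 10 were higher and 0 of 10 lower with butyrate, against 1.18% and 0.605% of genes. For LNCKO against WT in control, 0 of 10 were higher and 0 of 10 lower, against 1.14% and 1.49% of genes, and under butyrate 0 of 10 were higher and 0 of 10 lower, against 2.56% and 2.70%. Each of these shares comes to fewer than 1 gene in 10. For Dusp4 in LNCKO control against WT control the plain ratio of 0.656 lay past 1.5-fold, while its log2 value with the added 1 was -0.30.

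A smaller threshold of 1.2-fold, chosen after the values were seen, was passed by few members. Dusp22 was the only one with butyrate, lower in both WT and LNCKO, 1 of 10 in each, where 25.9% of genes passed 1.2-fold in either direction in WT and 11.3% in LNCKO. For LNCKO against WT in control, 2 of 10 passed, Dusp5 as higher and Dusp4 as lower, against 13.6% of genes. Under butyrate 2 of 10 passed, Dusp5 and Dusp2, both higher, against 24.7% of genes.

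**Figure D3:**
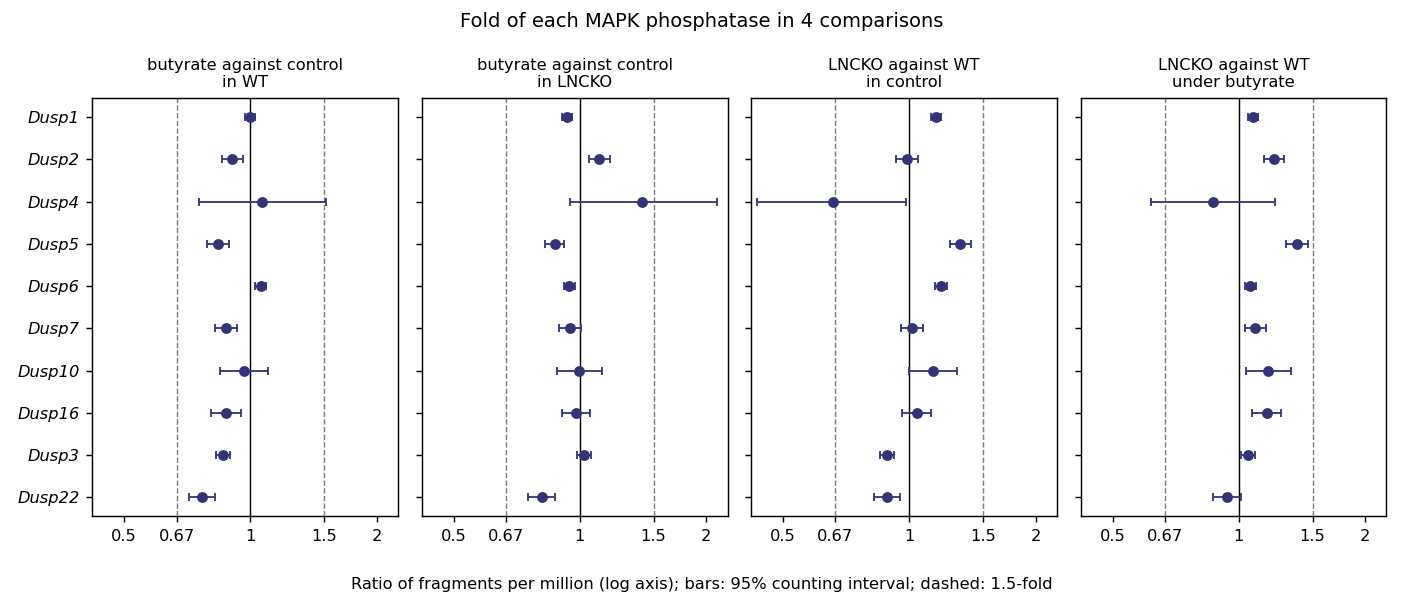
Plain ratio of FPM for each member in the 4 comparisons, on a log axis, with bars for the 95% counting interval and dashed lines at 1.5-fold. Dusp22 lies left of 1 in both butyrate comparisons, Dusp5 lies right of 1 in both genotype comparisons, and only Dusp4, at 0.656 in LNCKO against WT in control, lies past a dashed line.

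As a family the phosphatases were slightly lower with butyrate in WT, with a median log2 change of -0.16 where all genes had -0.05, and 8 of 10 were below 0, as were 60.1% of all genes compared. In LNCKO the medians were -0.05 for the members and -0.02 for all genes, and 7 of 10 members and 57.5% of all genes were below 0. After scaling the libraries by their median ratio, 6 of 10 were below 0 in each genotype, since Dusp1 in WT and Dusp10 in both crossed 0. LNCKO against WT gave a median of 0.04 in control, with 6 of 10 above 0, and of 0.12 under butyrate, with 8 of 10 above 0, where all genes had 0.02 and 0.05 and 55.8% and 59.9% of them were above 0. The WT butyrate library stands in 2 of these comparisons, and it was the lowest library for 7 of 10 members, Dusp1, Dusp2, Dusp3, Dusp5, Dusp7, Dusp10 and Dusp16. It was also the lowest for 45.4% of all genes compared. The LNCKO control library was the highest for 6 of 10 members and for 31.7% of all genes. The range of a member over the 4 libraries had a median of 0.25 on the log2 scale, as against 0.24 for all genes compared, with Dusp5 the widest at 0.65 and Dusp7 the narrowest at 0.21.

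The butyrate change in WT minus that in LNCKO was under 1.5-fold for all 10 members, where 7.22% of genes passed it in either direction. Dusp2 had the largest difference, -0.29 on the log2 scale, followed by Dusp3 at -0.25, and 25.8% and 32.0% of all genes compared had a difference at least as large. Dusp22 had -0.08 and Dusp5 -0.05, so that their changes with butyrate were of like size in the genotypes. The WT and LNCKO changes share no library, and 7 of 10 members had the same sign in both, as had 55.7% of all genes compared. For LNCKO against WT, 8 of 10 members had the same sign in control and under butyrate, as had 54.7% of genes.

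The markers of other cells moved with some of these values. In WT butyrate, B cell markers had a median log2 change of -0.25 against WT control, and in LNCKO butyrate of 0.00 against LNCKO control, and their median for LNCKO against WT was 0.02 in control and 0.37 under butyrate. The medians of the neutrophil and granulocyte precursor markers went the other way, at 0.16 with butyrate in WT and -0.40 for LNCKO against WT under butyrate. They were -0.04 with butyrate in LNCKO and -0.18 for LNCKO against WT in control. The list was split, with 3 of 10 below 0 with butyrate in WT. For LNCKO against WT under butyrate, 3 of 10 were above 0. Camp and Ngp were among these exceptions both times. The medians of the phosphatases for WT with butyrate and for LNCKO against WT under butyrate were -0.16 and 0.12. Beside Dusp5, the 7 mast cell and basophil markers summed to 154 FPM without and 129 FPM with butyrate in WT, and to 224 FPM without and 217 FPM with it in LNCKO. Prss34 was the largest part of that sum in all 4 libraries, and only Prss34, Mcpt8 and Cpa3 had the order of the sum. Kit was highest in WT butyrate, and Ms4a2 was higher with butyrate in both genotypes. Gata2 was slightly higher with butyrate in WT, and the sparse Fcer1a was highest in WT control. For T and NK cell markers the sums lay between 80.4 and 87.4 FPM in all 4 libraries, and their medians for LNCKO against WT were 0.51 in control and 0.59 under butyrate. Cd4 was the largest part of these sums and stood at -0.40 and -0.23 in those comparisons. The other 6 of the 7 markers compared were above 0 both times. Among them the sparse Cd3e had 43 and 20 fragments in WT and 101 and 110 in LNCKO, control first. Erythroid markers summed to 5.96 FPM without and 6.88 FPM with butyrate in WT, and to 23.1 FPM without and 64.1 FPM with it in LNCKO. Stromal cell markers summed to 235 and 219 FPM in WT and to 70.0 and 144 FPM in LNCKO, control first. Dendritic cell markers lay between 260 and 308 FPM. The part of these cells in the values of the phosphatases was not tested.

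Most of the kinases named here that the phosphatases act on were steady. Of 14 MAP kinase genes 11 were compared, and Mapk3, which encodes an ERK kinase, stood at log2 changes of 0.02 with butyrate in WT and of 0.01 in LNCKO. For LNCKO against WT it stood at -0.09 both in control and under butyrate. The p38 gene Mapk14 lay between -0.16 and 0.03 in the 4 comparisons, and the JNK genes Mapk8 and Mapk9 between -0.13 and 0.20. Past 1.5-fold were Mapk13, with 300 fragments in WT control and 515 in WT butyrate, and the sparsely counted Mapk4, with 47 and 107, both higher with butyrate in WT. Mapk4 was also past it as lower in LNCKO than in WT under butyrate, with 46 fragments in LNCKO. None of the 7 MAP kinase kinases and none of the 6 Ras and Raf genes passed 1.5-fold in any of the 4 comparisons. Their medians lay between -0.11 and 0.19 for the kinase kinases and between -0.19 and 0.05 for Ras and Raf.

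Other phosphatases also stayed under 1.5-fold on the log2 scale of FPM plus 1. Of 18 further dual-specificity phosphatases found, 10 were compared and 0 passed 1.5-fold in any of the 4 comparisons. Their medians were 0.03 and -0.05 with butyrate in WT and LNCKO. For LNCKO against WT they were 0.00 and -0.02 in control and under butyrate. By plain ratio the sparse Dusp18 lay past 1.5-fold, at 0.550 for LNCKO against WT under butyrate. Of 9 other phosphatases that act on MAP kinases, such as Ptpn7 and the Ppm1 and PP2A genes, 7 were compared and 0 passed. Their median was -0.20 with butyrate in WT and 0.19 for LNCKO against WT under butyrate, where the 10 members had -0.16 and 0.12.

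The listed ERK feedback and target genes had a median farther from 0 between the genotypes than the phosphatases. The list leaves out the phosphatases, though members such as Dusp6 belong to ERK feedback too. Of 17 ERK feedback and target genes 13 were compared, and their median for LNCKO against WT was 0.33 in control and 0.21 under butyrate, beside 0.04 and 0.12 for the phosphatases. The genotype comparison in control had 2 of 13 past 1.5-fold as higher, Etv5 at 0.95 and Egr1 at 0.61, where 1.14% of all genes compared were. Under butyrate it had 2 of 13, Etv5 at 0.83 and Egr2 at 0.98, where 2.56% of all genes were. Egr1 and Egr2 were named after their values were seen. Dusp5, at 0.39 and 0.45, lay nearest to these genes among the phosphatases, whereas Dusp6 had 0.25 and 0.09. With butyrate, Etv5 was lower in both WT, at -0.58, and LNCKO, at -0.70, and Myc was higher in WT at 0.90 and stood at -0.10 in LNCKO. Of the list, 1 gene was past 1.5-fold as higher with butyrate in WT, Myc, and 2 as lower, Egr2 at -0.72 and Phlda1 at -0.64, the latter also named after its value was seen. Among all genes compared, 2.79% were higher and 2.06% lower by that much. Under butyrate Myc stood at -0.57 for LNCKO against WT.

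**Figure D4:**
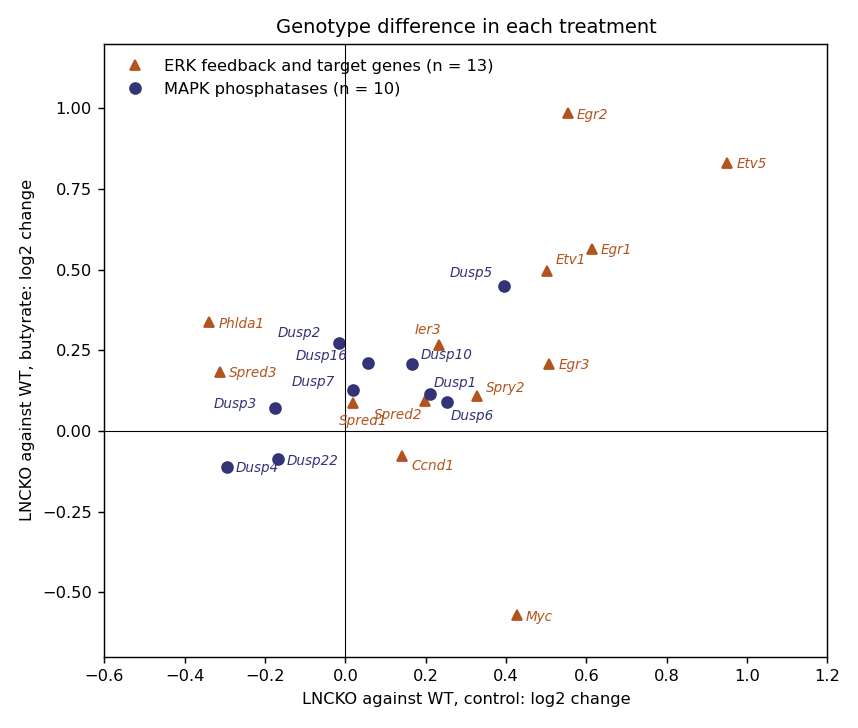
Log2 change of LNCKO against WT in control, on the horizontal axis, and under butyrate, on the vertical axis, for the 10 MAPK phosphatases (circles) and the 13 ERK feedback and target genes compared (triangles). Dusp5, at 0.39 and 0.45, is the phosphatase farthest to the upper right, and Etv5 lies beyond it at 0.95 and 0.83.

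Of the 13 immediate early genes, 2 were past 1.5-fold as higher in LNCKO control against WT control, where 1.14% of all genes compared were. For LNCKO against WT under butyrate 1 was higher, where 2.56% of all genes were. With butyrate in WT 2 were lower, where 2.06% of all genes were. Nr4a1 was among the immediate early genes past 1.5-fold in all 3 instances. It had 972 fragments without and 621 with butyrate in WT, and 1779 without and 1657 with it in LNCKO. The other gene higher in LNCKO control was Egr1, which is in both this list and the ERK list and was counted there already. The median of the list was 0.13 and 0.19 for LNCKO against WT in control and under butyrate. Among the 7 MAPK genes that the study names, Nr4a1, the same gene, was the only one past 1.5-fold in any of the 4 comparisons. It had 0.91 and 1.19 for LNCKO against WT, and -0.67 and -0.39 with butyrate in WT and LNCKO. With butyrate in WT, Atf4 stood at 0.07, Daxx at 0.02, Jund at -0.32, Pak1 at -0.35, Flna at -0.25 and Hspa1a at -0.55. By plain ratio Hspa1a, low in level, was also past 1.5-fold. Its ratio was 0.610 with butyrate in WT and 1.55 for LNCKO against WT under butyrate. The study took these genes up from single-cell data of colon macrophages, which are not part of these libraries. It also silenced them in macrophages from bone marrow, and it blotted NR4A1 protein in WT and LNCKO BMDMs exposed to butyrate. In human macrophages it reports higher NR4A1 with butyrate, whereas Nr4a1 RNA was lower with butyrate here in both genotypes. The reason for that difference was not tested.

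Dusp5 and Dusp22 had the widest ranges of the members, and the genes nearest to them over the 4 libraries were sought among the 9086 with a mean of at least 10 FPM, by Euclidean distance of log2 values centred on their mean. Nearest to Dusp5 were Usp6nl at 0.056, Fam177a2 at 0.058 and Carmil2 at 0.060, where the median distance of all genes was 0.44. Usp6nl had 26.3 FPM without and 21.1 FPM with butyrate in WT, and 33.1 FPM without and 29.7 FPM with it in LNCKO. Nearest to Dusp22 were Nlrp1a at 0.048, Itgb2l at 0.072 and 6430548M08Rik at 0.088, where the median distance was 0.37. Nlrp1a, an inflammasome sensor, had 24.5 FPM without and 18.2 FPM with butyrate in WT, and 22.0 FPM without and 17.1 FPM with it in LNCKO. With 4 libraries such likeness is a description.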

How the data were processed

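All 4 RNA sequencing libraries of mouse BMDMs were used. The authors deposited gene values as FPKM, fragments per kilobase and 1000000 fragments, in 1 table, and the submitters' processing notes name STAR 2.5.0c, Picard 1.126, bedtools 2.17.0, HTSeq 0.6.0 and DESeq2 3.0, with builds GRCm38 and mm10. RNA extraction and library kits are described differently in the sources. Of 16375 genes, 16342 matched GENCODE M21 by identifier. FPKM times genomic span and a library total gave whole fragments (within 0.05) in all 4 libraries for 98.6% of genes, against 7.48% with exon length, so span was taken as the length the authors used. Totals were recovered as those giving most whole values. FPM is FPKM times span in kilobases. Genes with a mean of at least 1 FPM were compared (11738, all 10 members included) as log2(FPM + 1), which understates changes of low genes, and called at 1.5-fold. Intervals (95%) are exact: Clopper-Pearson for a level, conditional for a ratio. Reads are not independent molecules, so intervals cover counting error only. Steps were tested on simulated data. With 1 library per group no count test was run.

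The members and lists were chosen with earlier results of these data known. Named were all members, MAP kinases (some of them not reported here), the MAPK genes the study names, the genes of each list that rose or fell most with a mean of at least 10 FPM, and the 3 genes nearest to the 2 members with the widest range. Some markers of other cells, and Dusp18, were named after their values were seen. Pseudocounts, scaling, filters and folds were varied. Coordinates are GENCODE M21, promoters RefSeq (GRCm38.p6). Python 3.11.15, numpy 2.4.6, pandas 2.3.3, scipy 1.17.1 and matplotlib 3.10.9 were used.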

Additional observations from a re-analysis of the deposited data

Results flagged for a closer look

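The butyrate changes of 2 members went opposite ways in the 2 genotypes, each by more than its counting interval. Dusp2 was lower with butyrate in WT and higher in LNCKO, a difference of -0.29 on the log2 scale. Dusp6 was higher in WT and lower in LNCKO, a difference of 0.16. With 1 library per group neither difference was tested, and 25.8% and 48.9% of all genes compared had a difference at least as large.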

How the results depend on the processing

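No paired analysis was possible because each group has 1 library, and for the same reason no library could be left out. Under a pseudocount of 0.1 FPM, both FPKM scales and median-ratio scaling, the count of members past 1.5-fold stayed 0 in every comparison. A call at 2-fold could only give 0 as well, since no member passed 1.5-fold. Without a pseudocount 1 member, Dusp4, was at least 1.5-fold lower in LNCKO control against WT control. At 1.2-fold, an alternative chosen after the values were seen, 1 member was lower with butyrate in WT, 1 in LNCKO, 1 higher and 1 lower in LNCKO control against WT control, 2 higher under butyrate, and 1, Dusp2, differed in its butyrate change between the genotypes. Of the 40 member changes, 3 changed sign under median-ratio scaling, which touched Dusp1 with butyrate in WT and Dusp10 with butyrate in both genotypes, and 0 under each of the other 4 scales. On the log2(FPKM + 1) scale, where 1 FPKM is many fragments for a long gene, changes shrank, among them Dusp10 and Dusp16 in LNCKO against WT under butyrate from 0.21 and 0.21 to 0.03 and 0.05, Dusp16 and Dusp22 with butyrate in WT from -0.18 and -0.37 to -0.04 and -0.13, and Dusp5 in LNCKO control against WT control from 0.39 to 0.31. Depth limits Dusp4 above all, with 41 fragments in its lowest library. The counts over all genes also depended on the settings. The member counts, at 0 of 10, could not fall and so are no measure of stability. Of all genes, 327 were at least 1.5-fold higher and 242 lower with butyrate in WT. These became 66 and 35 on the log2(FPKM + 1) scale, and 84 and 112 with a mean of at least 10 FPM. They became 498 and 384 with a pseudocount of 0.1 FPM, 513 and 396 with none, 75 and 39 at 2-fold and 1328 and 1717 at 1.2-fold. In LNCKO 138 and 71 became 27 and 15 on the log2(FPKM + 1) scale and 283 and 166 without a pseudocount. For LNCKO against WT, 134 and 175 in control became 26 and 26 or 272 and 313, and 301 and 317 under butyrate became 54 and 59 or 457 and 498, on the same scales.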
